A study of Mus musculus with 6 samples.

Results

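The spliceosome genes described here are the 123 genes, of 25572 in the table, whose pathway annotation in the deposited file holds the term Spliceosome. Each gene was included by that annotation and not by its values, although members were chosen with earlier results of these data known. The term was attached to 128 genes, and 5 of these, the heat shock genes Hspa1a, Hspa1b, Hspa1l and Hspa8 and the initiation factor gene Eif4a3, were left out by name. Of the 123, 122 had a mean of at least 0.5 FPKM (fragments scaled for gene length and library depth) over the 6 libraries and were tested. The remaining gene, Hnrnpa1l2-ps2, a pseudogene by its name, had a mean of 0.00766 FPKM. RNA-seq was run on total RNA of hind limb skeletal muscle from mice that had all undergone hindlimb ischemia (HLI) surgery, an operation that restricts blood flow to the leg, and were sampled 3 days later. The 3 mice labelled HDCKO were Hdc-/-, deficient in the histidine decarboxylase gene, whose enzyme produces histamine, and the 3 labelled WT were wild type. Each library was 1 mouse, and no group without surgery was analysed here. The sources used here do not give strain, age, sex, the muscle taken or how the Hdc allele was made.

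The spliceosome removes introns from pre-mRNA. U1 and U2 small nuclear ribonucleoproteins (snRNPs) recognise the 5′ splice site and the branch point, the U4/U6.U5 tri-snRNP then joins, and helicases and the Prp19 complex remodel the assembly into its catalytic form. SR proteins and hnRNP proteins bind the pre-mRNA and influence which sites are used, and the exon junction complex stays on the spliced mRNA. Skeletal muscle is known for extensive tissue-specific alternative splicing, for example of sarcomere genes.

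Library depth, roughly estimated from the size of 1 fragment in genes with low values, lay between 29342695 and 37800714 fragments. The estimate rests on the most frequent value, held by 59 to 101 of the 3153 to 4700 such genes per library. It used exon lengths that may differ from those behind the deposited values. Spliceosome genes were well covered, with a median of 21.7 FPKM over the tested members against 7.26 FPKM over all 13288 genes tested. Hdc itself was at 1.22, 2.46 and 2.52 FPKM in HDCKO mice 1, 2 and 3 and at 7.49, 7.72 and 8.17 FPKM in WT mice 1, 2 and 3 (log2 change -1.74, limma adjusted p = 0.0033), so it was lower in the HDCKO mice but was not at 0. Composition differed strongly between the groups: 28 contractile fibre genes and 13 mitochondrially encoded genes together took 27.0% to 44.6% of all FPKM in HDCKO and 3.66% to 4.50% in WT. All 28 and all 13 rose, so the fibre genes that define the labelled tissue were low in the WT libraries. Because FPKM is relative to library depth, so that a few abundant genes can lower the values of others, every member was also compared after median-of-ratios scaling, which divides each library by the median ratio of its genes to their geometric means. The factors were 0.670, 0.817 and 1.05 in HDCKO mice 1, 2 and 3 and 1.18, 1.22 and 1.21 in WT mice 1, 2 and 3. This scaling moved the median change over all genes tested from -0.50 to -0.04 on the log2 scale. In bulk tissue, fewer cells of a type and less RNA per cell cannot be told apart.

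Transcripts of the splicing machinery were lower in HDCKO muscle on the deposited scale, and part of this difference went with the scaling. With limma-trend on log2(FPKM + 0.5), adjusted over all genes tested by the Benjamini-Hochberg method at a threshold of 0.05, 89 of 122 spliceosome genes fell (73.0%), where 42.6% of all genes tested fell. Only 2 members rose, Prpf19 and U2af1l4, where 17.8% of all genes tested rose, and 31 did not pass. The median log2 change, HDCKO minus WT, was -0.82 over the members. After median-of-ratios scaling 47 members fell (38.5%, where 26.3% of all genes fell), 12 rose (9.84%, where 26.3% rose) and 63 did not pass. Their median log2 change was then -0.31. The 47 that fell and the 2 that rose passed in the same direction on both scales, and 0 members passed in opposite directions.

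The members changed within a narrower range than other genes. The middle 50% of members lay between -1.07 and -0.50 on the log2 scale, and the middle 50% of all genes tested lay between -1.10 and 0.21. Changes past -1 that passed the test were seen in 40 members (32.8%, against 26.0% of all genes tested) on the deposited scale. After scaling they were seen in 4, Snrpd1, Srsf9, Hnrnpa1 and Ppil1. The share of all genes was not computed there, so these 4 cannot be set against it. Values of the 2 groups did not overlap, with HDCKO lower, in 102 members on the deposited scale (51.4% of all genes tested did so) and in 68 after scaling (34.7% of all genes). They did not overlap, with HDCKO higher, in 6 members on the deposited scale (21.2% of all genes) and in 19 after scaling (32.4% of all genes).

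The counts of calls depended on single libraries, while the medians moved less. On the deposited scale the number of members that fell was 19 without HDCKO mouse 2, 33 without WT mouse 1, 33 without WT mouse 2 and 32 without WT mouse 3. These are 15.6%, 27.0%, 27.0% and 26.2% of the members, against 18.9%, 22.4%, 23.5% and 21.1% of all genes in the same fits. The corresponding numbers after scaling were 9, 11, 16 and 13, or 7.38%, 9.02%, 13.1% and 10.7% of the members against 12.5%, 14.0%, 16.1% and 14.3% of all genes. The members' share of calls was thus below that of all genes in each of these 4 scaled fits and, on the deposited scale, without HDCKO mouse 2. Without HDCKO mouse 1 it was above, at 53.3% against 33.3% on the deposited scale and 27.0% against 21.0% after scaling. Without HDCKO mouse 3 it was 83.6% against 55.1%, and 45.9% against 32.6% after scaling. The members' median over all 6 such omissions ran from -0.98 to -0.66 on the deposited scale and from -0.31 to -0.24 after scaling. Counts of genes that fell in single classes, given below for the same fits, have these shares of all genes as their background. For the replicate number as a block, the share of all genes that fell after scaling was 22.7%.

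**Figure D1:**
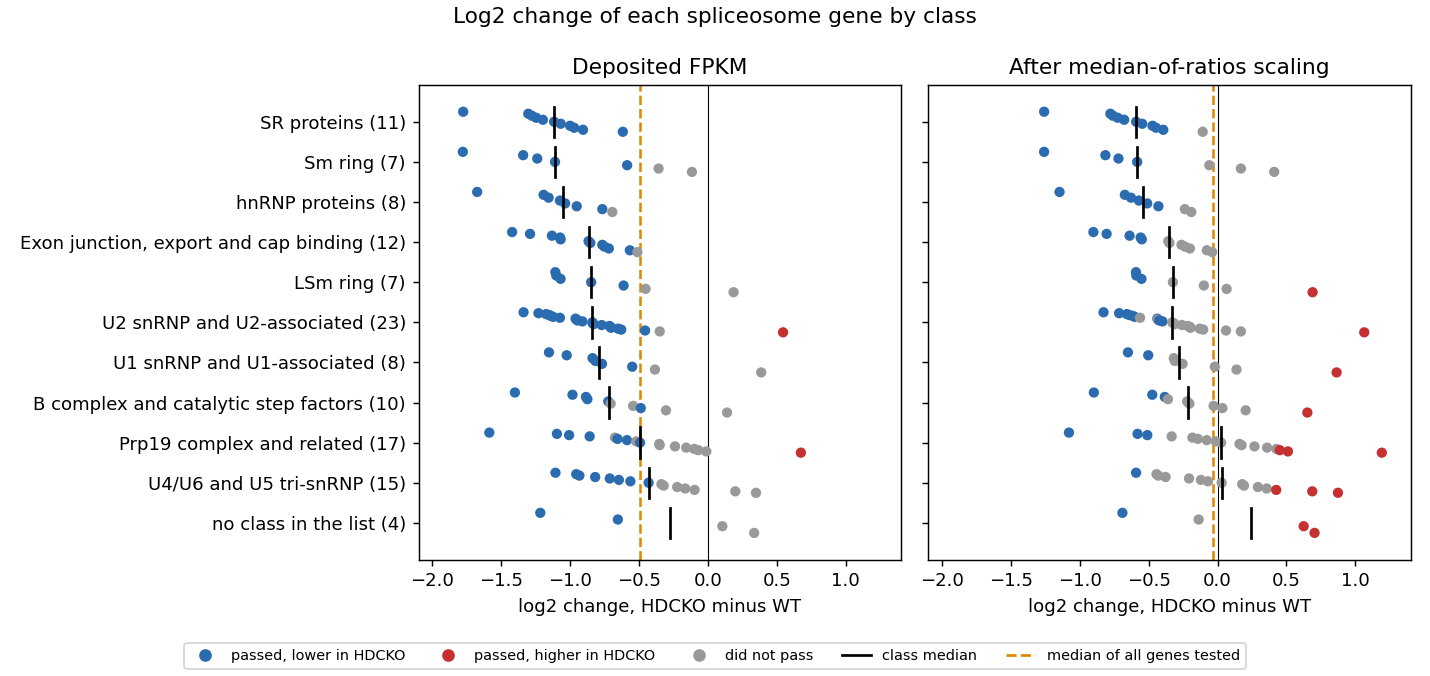
Log2 change (HDCKO minus WT) of each tested spliceosome gene, grouped by class with the number of genes in brackets, on deposited FPKM (left) and after median-of-ratios scaling (right). Points are genes, coloured by whether they passed the limma test and in which direction, black bars are class medians and the dashed line is the median of all genes tested. SR, Sm and hnRNP genes lie farthest left, and the tri-snRNP and Prp19 classes lie around the median of all genes.

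The Sm proteins form the ring that holds the small nuclear RNA in the U1, U2, U4 and U5 particles. Of 7 Sm genes, 5 fell on the deposited scale (71.4%, median log2 change -1.11) and 4 after scaling (57.1%, median -0.58). The shares of all genes tested were 42.6% and 26.3%. Snrpd1, which encodes SmD1, was at 11.5, 17.6 and 35.6 FPKM in HDCKO mice 1, 2 and 3 and at 63.3, 68.3 and 71.8 FPKM in WT mice 1, 2 and 3. The groups did not overlap, and HDCKO mouse 3 was the closest to WT. The means were 21.6 ± 12.5 and 67.8 ± 4.27 FPKM (SD, n = 3 each), and the log2 change of -1.78 (SE 0.39, limma adjusted p = 0.012) was -1.26 after scaling (adjusted p = 0.00994). Snrpg, for SmG and the most abundant Sm transcript in WT, was at 38.9, 54.7 and 90.6 FPKM in HDCKO and at 151, 144 and 147 FPKM in WT. Its log2 change was -1.34 (limma adjusted p = 0.0137), and -0.81 after scaling (adjusted p = 0.0132). Without HDCKO mouse 2 the adjusted p of Snrpg was 0.0548, and after scaling it was 0.0567, 0.0538 and 0.0508 without HDCKO mouse 2, WT mouse 1 and WT mouse 3. Snrpb, for SmB, behaved differently, with 69.3, 68.7 and 77.3 FPKM in HDCKO and 74.4, 81.6 and 77.4 FPKM in WT. The groups of Snrpb overlapped, and its log2 changes of -0.12 and, after scaling, 0.41 did not pass (limma adjusted p = 0.471 and 0.0761). Mean FPKM in WT ran from 47.1 for Snrpf to 147 for Snrpg. In HDCKO mice 1 and 2 Snrpd3 and Snrpb were above Snrpg, while in HDCKO mouse 3 Snrpg was again the highest, and this order was not tested. Without HDCKO mouse 2, without WT mouse 1 or 3, and without WT mouse 2, the Sm genes that fell on the deposited scale numbered 1, 2 and 3. After scaling they numbered 2 without WT mouse 2 and 1 without HDCKO mouse 2, WT mouse 1 or WT mouse 3.

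LSm proteins form the related ring on U6 RNA. Of 7 LSm genes, 5 fell on the deposited scale (71.4%, median -0.85) and 3 after scaling (42.9%, median -0.32). Among all genes tested 42.6% and 26.3% fell. Lsm6 alone rose after scaling (log2 change 0.69, limma adjusted p = 0.0135), or 14.3% where 26.3% of all genes rose. Lsm3 was at 23.8, 24.7 and 34.1 FPKM in HDCKO and at 48.8, 51.2 and 47.9 FPKM in WT. Every HDCKO value lay below every WT value, and the log2 change of -0.85 passed on the deposited scale (limma adjusted p = 0.0101) but not after scaling (-0.32, adjusted p = 0.0676). The number that fell on the deposited scale was 2 without HDCKO mouse 2 and 3 without WT mouse 1 or WT mouse 2. After scaling it was 0 without HDCKO mouse 2 or WT mouse 1, 1 without WT mouse 2 or 3, and 1 with the replicate number as a block. The number that rose after scaling was 0 without WT mouse 1.

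Among U1 proteins and their partners, 6 of 8 fell on the deposited scale (median -0.79) and 2 after scaling (median -0.28), Snrnp70 among them, while Prpf40b rose after scaling. Snrnp70, for the U1-70K protein that binds U1 RNA, was at 19.1, 20.3 and 26.7 FPKM in HDCKO and at 46.5, 44.0 and 44.2 FPKM in WT. The groups did not overlap, and the log2 change was -1.03 (limma adjusted p = 0.00492), and -0.50 after scaling (adjusted p = 0.018). The scaled call of Snrnp70 was lost without HDCKO mouse 2 (adjusted p = 0.0809), WT mouse 1 (0.0743) or WT mouse 3 (0.0592). Ddx5, for an RNA helicase and the most abundant of all the members, was at 137, 164 and 174 FPKM in HDCKO and at 228, 255 and 213 FPKM in WT. Its log2 change of -0.55 passed (limma adjusted p = 0.0342) and was -0.02 after scaling (adjusted p = 0.926), and the adjusted p rose to between 0.0742 and 0.109 without any 1 library other than HDCKO mouse 3. U1 genes that fell on the deposited scale numbered 1 or 2 without HDCKO mouse 2 or any 1 WT mouse, and after scaling 1 without WT mouse 2 and 0 in the other 3 of these fits. Prpf40b rose in 0 of these 4 scaled fits, and with the replicate number as a block 1 U1 gene fell after scaling.

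The U2 snRNP and its associated proteins, which bind the branch point and the 3′ splice site, are the largest class. Of 23 members, 21 fell on the deposited scale (91.3%, median -0.84) and 9 after scaling (39.1%, median -0.33), and U2af1l4 rose on both. By comparison, 42.6% and 26.3% of all genes tested fell. Sf3b6, for the SF3B subunit that contacts the branch point, was at 20.0, 27.3 and 36.2 FPKM in HDCKO and at 56.1, 63.0 and 61.7 FPKM in WT. The groups were apart, with a log2 change of -1.14 (limma adjusted p = 0.00949), and -0.62 after scaling (adjusted p = 0.0102). Sf3b4, also in SF3B, had a log2 change of -1.34 (adjusted p = 0.0267), with 6.33, 10.7 and 19.7 FPKM in HDCKO and 26.1, 27.9 and 32.5 FPKM in WT. Leaving out HDCKO mouse 2 or any 1 WT mouse raised the adjusted p of Sf3b4 to between 0.0645 and 0.0838. After scaling the log2 change of Sf3b4 was -0.83 (limma adjusted p = 0.0361). That scaled call was lost without any 1 library other than HDCKO mouse 3 (adjusted p 0.06 to 0.112). Sf3b2 was at 31.3, 40.1 and 51.8 FPKM in HDCKO and at 57.9, 66.1 and 63.8 FPKM in WT. The log2 change of Sf3b2 was -0.63 (adjusted p = 0.04) and -0.10 after scaling (adjusted p = 0.484), and without any 1 library other than HDCKO mouse 3 its adjusted p was between 0.0801 and 0.112. U2 genes that fell on the deposited scale numbered 13 without HDCKO mouse 1, 3 without HDCKO mouse 2, 6 without WT mouse 1 or 2 and 5 without WT mouse 3. After scaling they numbered 5 without HDCKO mouse 1, 1 without HDCKO mouse 2 or WT mouse 3, 2 without WT mouse 1 or 2, and 4 with the replicate number as a block.

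The tri-snRNP proteins changed less. Of 15 members, 8 fell and 0 rose on the deposited scale (median -0.43), while after scaling 1 fell, the U5 GTPase gene Eftud2, and 3 rose, Prpf8, Prpf4 and Snrnp27 (median 0.03). On the deposited scale 53.3% of the class fell, where 42.6% of all genes tested did. After scaling 6.67% fell and 20.0% rose, where 26.3% of all genes went each way. Snu13, for a protein that binds a turn in U4 RNA, was at 35.9, 40.3 and 48.5 FPKM in HDCKO and at 60.5, 67.1 and 67.3 FPKM in WT. Its log2 change of -0.65 passed (limma adjusted p = 0.0171) and was -0.12 after scaling (adjusted p = 0.447). Without HDCKO mouse 2, WT mouse 2 or WT mouse 3 the adjusted p of Snu13 was 0.07, 0.0579 or 0.0629. Snrnp27 was at 50.2, 55.7 and 45.3 FPKM in HDCKO and at 39.0, 39.8 and 39.2 FPKM in WT. Every HDCKO value of Snrnp27 lay above every WT value, yet its log2 change of 0.35 did not pass on the deposited scale (limma adjusted p = 0.0661) and 0.87 did after scaling (adjusted p = 0.0211). That call was lost without HDCKO mouse 2 or any 1 WT mouse (adjusted p 0.063 to 0.078). Prpf8 encodes the U5 protein at the centre of the catalytic core, and its means were 31.9 ± 6.57 FPKM in HDCKO and 33.8 ± 2.2 FPKM in WT (SD, n = 3 each). Tri-snRNP genes that fell on the deposited scale numbered 4 without HDCKO mouse 1, 1 without WT mouse 1, and 0 without HDCKO mouse 2, WT mouse 2 or WT mouse 3. After scaling 0 fell without any 1 library other than HDCKO mouse 3, and 0 rose without HDCKO mouse 2 or any 1 WT mouse.

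The Prp19 complex and its related proteins help to activate the spliceosome. Of 17 members, 7 fell (41.2%, near the 42.6% of all genes tested) and 1 rose on the deposited scale (median -0.49). After scaling 3 fell and 3 rose (17.6% each, where 26.3% of all genes went each way, median 0.03). The gene that rose on the deposited scale was Prpf19 itself, which encodes the ubiquitin ligase of the complex. It lies at chr19:10872573-10886923 on the plus strand (ENSMUSG00000024735, GRCm39). Prpf19 was at 27.2, 23.3 and 26.7 FPKM in HDCKO and at 15.7, 15.8 and 16.2 FPKM in WT. Every HDCKO value was above every WT value, and the means were 25.8 ± 2.13 and 15.9 ± 0.266 FPKM (SD, n = 3 each). The log2 change was 0.67 (SE 0.13, limma adjusted p = 0.00786), and 1.19 after scaling (adjusted p = 0.00537). It passed on both scales with any 1 library left out. Its partner Cwc15, the most abundant of the class, was at 51.8, 54.7 and 59.9 FPKM in HDCKO and at 63.1, 57.3 and 57.8 FPKM in WT. These values overlapped and did not pass on either scale (log2 change -0.10 and 0.43, adjusted p = 0.535 and 0.0629). Ppil1, for a peptidyl-prolyl isomerase, went the other way, with 6.67, 5.999 and 14.7 FPKM in HDCKO and 25.7, 26.1 and 27.0 FPKM in WT. The log2 change of Ppil1 was -1.59 (limma adjusted p = 0.0103), and -1.08 after scaling (adjusted p = 0.0121). The number that fell on the deposited scale was 4 without HDCKO mouse 1, 3 without WT mouse 2 and 2 without HDCKO mouse 2, WT mouse 1 or WT mouse 3. After scaling 1 fell without HDCKO mouse 2, WT mouse 1 or WT mouse 3, and 1 rose, Prpf19, without HDCKO mouse 2 or any 1 WT mouse.

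In the B complex and the catalytic step, 6 of 10 genes fell on the deposited scale (median -0.72) and 3 fell and 1 rose after scaling (median -0.21). Dhx38, for the helicase that prepares the second step of splicing, was at 4.88, 6.67 and 10.4 FPKM in HDCKO and at 17.4, 23.0 and 17.9 FPKM in WT. The groups did not overlap, and the log2 change was -1.40 (limma adjusted p = 0.00938), and -0.90 after scaling (adjusted p = 0.00839). Prpf18, a second-step factor, was the gene that rose after scaling (log2 change 0.65, limma adjusted p = 0.0275). That call was lost without HDCKO mouse 1, HDCKO mouse 2, WT mouse 1 or WT mouse 3, where 0 genes of the class rose. Zmat2 had a log2 change of -0.49 (limma adjusted p = 0.0445), and 0.04 after scaling (adjusted p = 0.809), and its call was lost without any 1 library other than HDCKO mouse 3 (adjusted p 0.104 to 0.138). The count of genes that fell on the deposited scale was 1 without HDCKO mouse 2 or any 1 WT mouse, and 4 without HDCKO mouse 1. After scaling it was 1 without any 1 library other than HDCKO mouse 3, and 1 with the replicate number as a block.

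Exon junction, mRNA export and cap binding genes fell in 11 of 12 cases on the deposited scale (91.7%, median -0.86) and in 5 after scaling (41.7%, median -0.35). All genes tested fell in 42.6% and 26.3% of cases. Alyref, for the adaptor that hands mRNA to the export receptor, was at 13.1, 16.2 and 32.4 FPKM in HDCKO and at 49.2, 52.8 and 53.6 FPKM in WT. Its log2 change was -1.42 (limma adjusted p = 0.0142), and -0.90 after scaling (adjusted p = 0.014), with adjusted p = 0.0573 and 0.0506 on the deposited scale, and 0.0587 and 0.0532 after scaling, without HDCKO mouse 2 and without WT mouse 3. Ddx39b, for an export helicase, had a log2 change of -0.57 (adjusted p = 0.0381), and -0.04 after scaling (adjusted p = 0.805), and did not pass without any 1 library other than HDCKO mouse 3 (adjusted p 0.081 to 0.112). The count of genes that fell on the deposited scale was 2 without HDCKO mouse 2, 5 without WT mouse 1, and 4 without WT mouse 2 or 3. After scaling it was 2 without HDCKO mouse 2, and 3 without any 1 WT mouse or with the replicate number as a block.

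All 11 SR protein genes fell on the deposited scale (median -1.12) and 10 fell after scaling (90.9%, median -0.59), the exception being Srsf4 (log2 change -0.11, limma adjusted p = 0.459). Over all genes tested the shares were 42.6% and 26.3%. Srsf9, at chr5:115465189-115476335 on the plus strand (ENSMUSG00000029538), was at 10.03, 13.5 and 28.6 FPKM in HDCKO and at 52.9, 56.0 and 56.5 FPKM in WT. The groups did not overlap, and the log2 change was -1.78 (SE 0.37, limma adjusted p = 0.0102), and -1.26 after scaling (adjusted p = 0.00806). Srsf5, the most abundant of the class, was at 68.6, 72.9 and 89.6 FPKM in HDCKO and at 154, 160 and 147 FPKM in WT. Its log2 change was -1.001 (adjusted p = 0.00488), and -0.47 after scaling (adjusted p = 0.0315), and the scaled call was lost without HDCKO mouse 2 or any 1 WT mouse (adjusted p 0.0797 to 0.116). On the deposited scale 6, 9, 7 and 10 SR genes fell without HDCKO mouse 2 and without WT mice 1, 2 and 3. After scaling the same omissions left 2, 2, 2 and 3, and the replicate number as a block left 5. Srsf9 shares exon sequence with Gatc, and Srsf5 with Slc10a1, on the opposite strand. The sources used here do not say whether counting used strand, and exons of 41 members overlap a protein-coding gene on the other strand in the GENCODE annotation of GRCm39.

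The hnRNP genes encode abundant RNA-binding proteins, several of which repress splice sites. Of 8, 7 fell on the deposited scale (median -1.06) and 6 after scaling (median -0.54). Hnrnpa1, at chr15:103148339-103155125 on the plus strand (ENSMUSG00000046434), was at 46.2, 61.1 and 148 FPKM in HDCKO and at 237, 240 and 243 FPKM in WT. The WT values were nearly equal, while HDCKO mouse 3 was far above the other HDCKO mice and still below WT. The log2 change was -1.67 (SE 0.43, limma adjusted p = 0.0181), and -1.15 after scaling (adjusted p = 0.0195). Omitting HDCKO mouse 2 gave adjusted p = 0.068 on the deposited scale, and omitting WT mouse 1, 2 or 3 gave 0.0548, 0.0559 or 0.0578, and after scaling the same 4 omissions gave 0.0597 to 0.0745. Hnrnpk was at 59.1, 71.6 and 111 FPKM in HDCKO and at 175, 175 and 171 FPKM in WT. Its groups did not overlap, and its log2 change was -1.16 (limma adjusted p = 0.0115), and -0.63 after scaling (adjusted p = 0.0137), with adjusted p = 0.0515 on the deposited scale without HDCKO mouse 2 and 0.0537 to 0.0649 after scaling without HDCKO mouse 2, WT mouse 1 or WT mouse 3. The hnRNP genes that fell on the deposited scale numbered 0 without HDCKO mouse 2 (Hnrnpa1 and Hnrnpk included), 2 without WT mouse 1 or 3 and 3 without WT mouse 2, with medians from -0.99 to -1.06 in these 4 fits. After scaling they numbered 0 without HDCKO mouse 2 or WT mouse 1, and 1 without WT mouse 2 or 3.

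**Figure D2:**
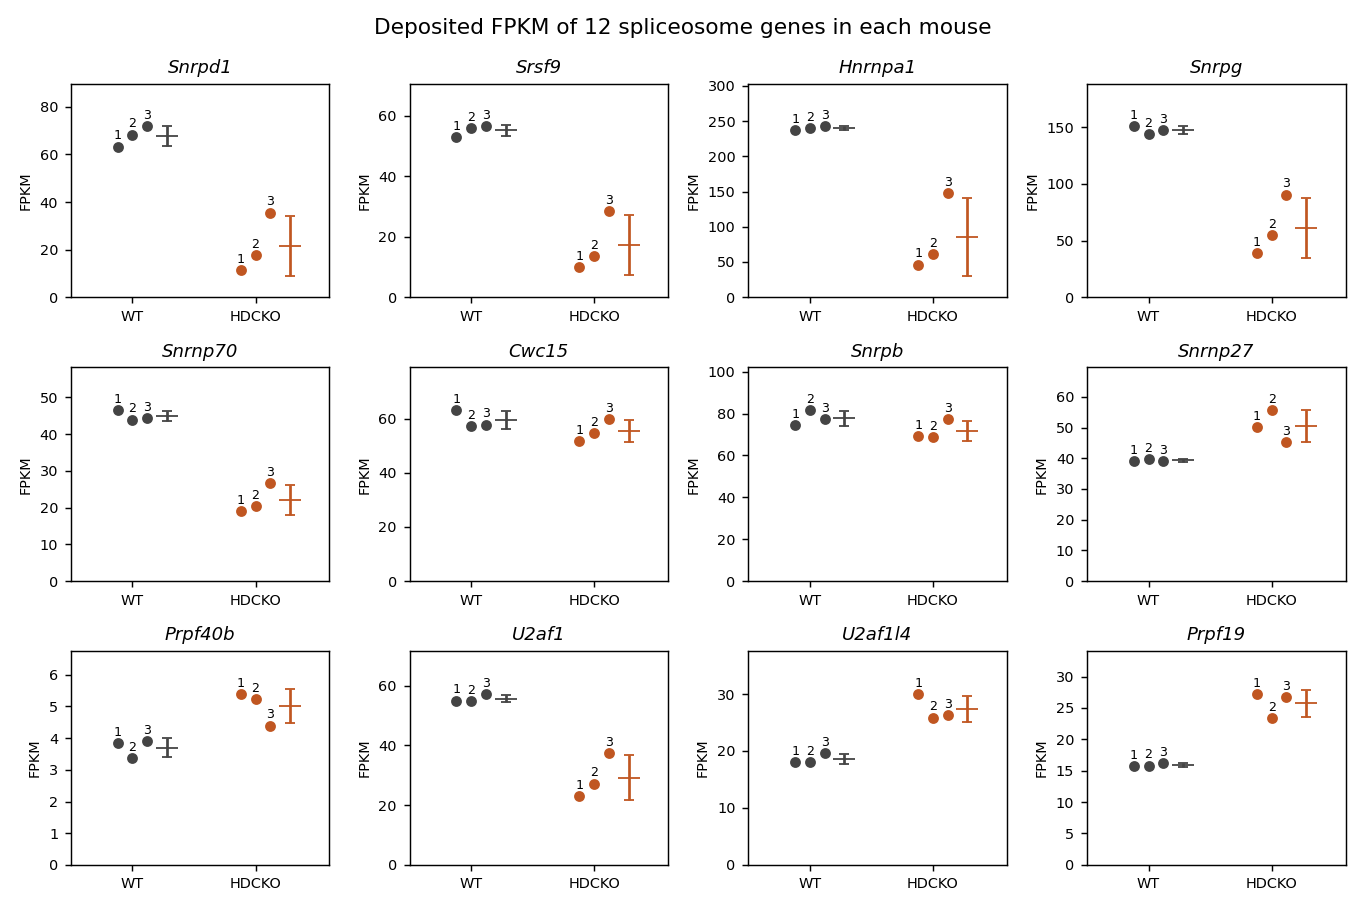
Deposited FPKM of 12 spliceosome genes in each mouse, with points numbered by mouse and bars showing the mean and SD over 3 mice per group. Snrpd1, Srsf9, Hnrnpa1, Snrpg, Snrnp70 and U2af1 are lower in every HDCKO mouse than in any WT mouse, Cwc15 and Snrpb overlap, and Snrnp27, Prpf40b, U2af1l4 and Prpf19 are higher in every HDCKO mouse.

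Related copies of the same splicing factor did not always move together. U2af1 encodes the small U2AF subunit that reads the 3′ splice site, and U2af1l4 encodes a related protein. U2af1, at chr17:31866036-31878236 on the minus strand, was at 23.0, 27.2 and 37.4 FPKM in HDCKO and at 55.0, 54.9 and 57.2 FPKM in WT (log2 change -0.95, limma adjusted p = 0.0108, and -0.42 after scaling, adjusted p = 0.0243). U2af1l4, at chr7:30262724-30264790 on the plus strand, was at 30.004, 25.9 and 26.3 FPKM in HDCKO and at 18.0, 18.1 and 19.7 FPKM in WT (log2 change 0.54, adjusted p = 0.0156, and 1.06 after scaling, adjusted p = 0.0113). U2af1 was below WT and U2af1l4 above WT in every HDCKO mouse. On the deposited scale the call of U2af1l4 was lost without HDCKO mouse 2, WT mouse 1 or WT mouse 2 (adjusted p = 0.0541, 0.0642 and 0.0545), and after scaling it passed with any 1 library left out. The scaled call of U2af1 was lost without HDCKO mouse 2 or any 1 WT mouse (adjusted p 0.06 to 0.0998). The ratio of U2af1l4 to U2af1 within a library, which no scaling can alter, was 1.30, 0.950 and 0.702 in HDCKO and 0.327, 0.329 and 0.344 in WT. The mean ratios were 0.984 ± 0.302 and 0.334 ± 0.00925 (SD, n = 3 each), and the exact two-sided permutation test gave p = 0.1, the smallest that 3 against 3 mice allow (0.25 after adjustment over 5 pairs). The exons of U2af1l4 overlap those of Psenen on the opposite strand and of the model Gm49396 on the same strand, so its reads may not all be its own. Psenen was at 53.5, 59.4 and 59.7 FPKM in HDCKO and at 58.5, 62.9 and 59.9 FPKM in WT.

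Prpf40b, for a protein associated with the U1 particle, was at 5.39, 5.22 and 4.39 FPKM in HDCKO and at 3.83, 3.36 and 3.92 FPKM in WT. Every HDCKO value lay above every WT value. Its log2 change of 0.39 did not pass on the deposited scale (limma adjusted p = 0.0613), and 0.86 passed after scaling (adjusted p = 0.0257). That call was lost without HDCKO mouse 2 or any 1 WT mouse (adjusted p 0.0681 to 0.0843).

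The 3 pairs of copies that follow gave ratios that overlapped between the groups. Magoh and Magohb encode the same kind of exon junction subunit, and both fell, Magoh by 1.07 and Magohb by 1.29 on the log2 scale (limma adjusted p = 0.0112 and 0.0049). For Magoh, leaving out HDCKO mouse 2 gave an adjusted p of 0.0505 on the deposited scale, while Magohb passed on both scales with any 1 library left out. After scaling the log2 changes of Magoh and Magohb were -0.55 and -0.80 (limma adjusted p = 0.0248 and 0.00566). The scaled call of Magoh was lost without HDCKO mouse 2, WT mouse 1 or WT mouse 2 (adjusted p 0.0802 to 0.0995). Magohb was at 2.89, 4.09 and 4.97 FPKM in HDCKO and at 11.1, 9.35 and 10.4 FPKM in WT. The ratio of Magohb to Magoh was 0.125, 0.165 and 0.130 in HDCKO and 0.185, 0.140 and 0.199 in WT (exact permutation p = 0.2). Tra2a and Tra2b, for SR-like activators, both fell as well, by 1.28 and 1.20 on the log2 scale (adjusted p = 0.00868 and 0.0152). For Tra2b the adjusted p was 0.0604 without HDCKO mouse 2 and 0.0536 without WT mouse 2. After scaling the log2 changes of Tra2a and Tra2b were -0.76 and -0.68 (limma adjusted p = 0.0087 and 0.0177). The scaled call of Tra2b was lost without HDCKO mouse 2 or any 1 WT mouse (adjusted p 0.0542 to 0.0737). The ratio of Tra2a to Tra2b was 0.823, 0.898 and 0.731 in HDCKO and 0.906, 0.892 and 0.798 in WT (exact permutation p = 0.6). Alyref2, a low-level copy of Alyref, was at 1.71, 1.86 and 1.57 FPKM in HDCKO and at 3.39, 2.73 and 1.99 FPKM in WT, and did not pass (log2 change -0.51, adjusted p = 0.0666). The ratio of Alyref2 to Alyref was 0.131, 0.115 and 0.0483 in HDCKO and 0.0691, 0.0517 and 0.0371 in WT (exact permutation p = 0.3). Reads shared by near-identical copies may have been split or dropped by the authors' counting.

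**Figure D3:**
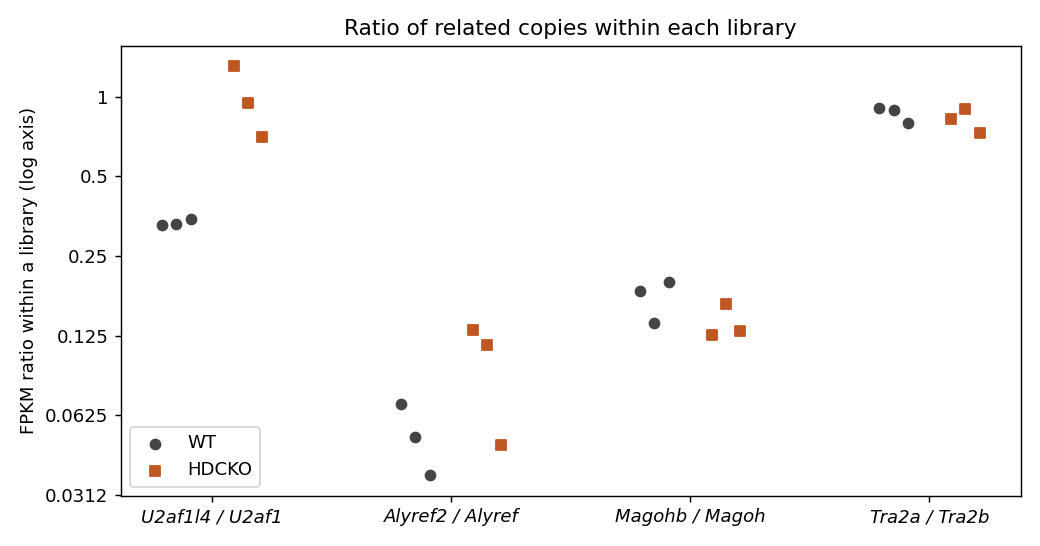
Ratio of the FPKM of related gene copies within each library, on a log axis, with WT mice as circles and HDCKO mice as squares. The U2af1l4 to U2af1 ratio is higher in every HDCKO mouse than in any WT mouse, and the other 3 ratios overlap.

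On the deposited scale the 3 HDCKO mice stood in the same order in most members. HDCKO mouse 1 had the lowest value of the 3 in 109 of 122 members, and HDCKO mouse 3 the highest in 114. The share of all genes with this order was not computed, and the medians of all genes followed it too. Set against the WT mean, the members' median log2 difference was -1.11, -0.94 and -0.40 in HDCKO mice 1, 2 and 3, where that of all genes tested was -0.75, -0.52 and -0.21. After scaling the members' 3 values were -0.30, -0.40 and -0.21, so HDCKO mouse 2 was then the lowest. The spread between the HDCKO mice narrowed from an SD of 0.37 to 0.09. For the SR genes the scaled medians were -0.67, -0.77 and -0.41, and for the tri-snRNP genes they were 0.16, 0.13 and -0.08. The summed FPKM of the members was 2311, 2684 and 3690 in HDCKO and 4916, 5115 and 4975 in WT, and every HDCKO mouse was below every WT mouse. With fibre and mitochondrial genes taken out of the total, spliceosome genes made up 0.916%, 0.940% and 1.19% of FPKM in HDCKO and 1.24%, 1.26% and 1.28% in WT. The groups still did not overlap, and the mean share in HDCKO was 0.806 of that in WT, where for summed FPKM it was 0.579 (exact permutation p = 0.1 each).

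**Figure D4:**
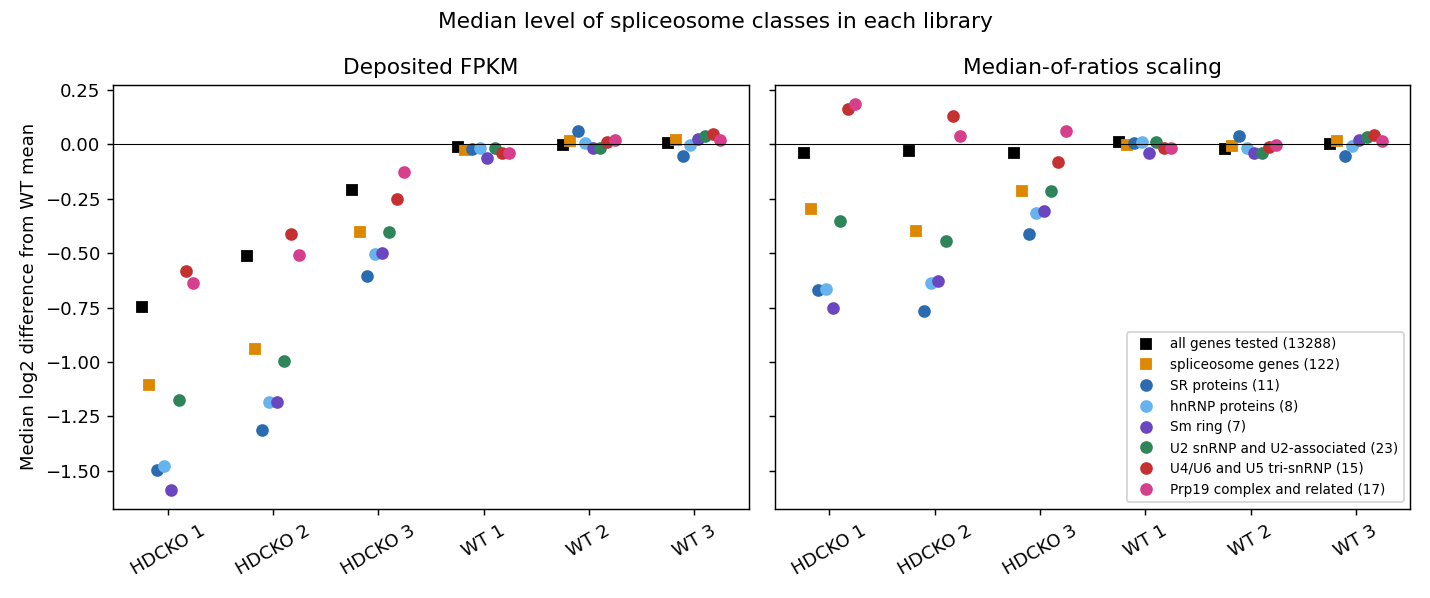
Median log2 difference from the WT mean in each library, for all genes tested, the 122 tested spliceosome genes and 6 of their classes, on deposited FPKM (left) and after median-of-ratios scaling (right). On the deposited scale the spliceosome median rises from -1.11 in HDCKO mouse 1 to -0.40 in HDCKO mouse 3, and after scaling it lies between -0.40 and -0.21 in all 3.

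Markers of other cells moved with the genotype too. Besides the fibre genes, which summed to 118811, 99616 and 64057 FPKM in HDCKO and to between 598.5 and 2102 FPKM in WT, all 11 neutrophil markers fell (summed level 33.1 to 76.1 FPKM in HDCKO and 2553 to 14677 in WT). Macrophage markers fell in 6 of 12 cases, near the 42.6% of all genes tested (328 to 2193 against 2283 to 3017 FPKM), fibroblast markers in 4 of 9, also near it (1502 to 2309 against 2943 to 5584 FPKM), and endothelial markers in 5 of 8 (191 to 268 against 379 to 565 FPKM). Cell cycle genes fell in 10 of 12 cases, with a summed level of 26.7, 54.5 and 229 FPKM in HDCKO and 329 to 394 FPKM in WT. The HDCKO mice stood in the same order here as in most spliceosome genes on the deposited scale. No marker was at 0 in any library. The part of this composition in the spliceosome results was not tested.

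Promoters of the members were read for short motifs. RefSeq promoters of GRCm38.p6 were found for 94 of the 123 genes (113 windows of 250 bases before the start). On either strand, and counting each motif regardless of overlap with another, CCGGAAG, the core bound by ETS factors, lay in 34.5% of these windows, in 12.6% of the windows of all genes tested and in 6.91% of all windows in the table. The NRF1-type motif of GCGC, A, any base and GCGC lay in 16.8%, 7.49% and 3.74%, while the fixed core GCATGCGC, which can overlap it and was added after those shares were seen, lay in 5.31%, 4.01% and 2.26%. The excess over genes tested was thus smaller with the fixed core. The CRE core TGACGT lay in 16.8%, 9.38% and 6.47%. Other motifs were as frequent, or nearly so, as in genes tested: CACGTG in 7.96% against 8.13%, TATAAA in 8.85% against 6.96%, CCAAT in 39.8% against 34.8% and GGGCGG in 56.6% against 55.7%. The windows were rich in CG, with a median of 19 CG dinucleotides against 15 in genes tested. CCGGAAG lay in 10 of the 41 windows of members that fell after scaling (24.4%) and in 2 of the 10 windows of members that rose (20.0%), so it was found in both. Both shares were below the 34.5% of all windows of the members. These matches are a description of letters and not of bound sites.

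Exon-free stretches of the promoter windows are shown for a member that rose (Prpf19), for 2 members that fell on the deposited scale with the same motif (Snu13 and Lsm5) and for a member that fell and holds the NRF1-type core (Snrnp70). Lsm5, chosen after its values were seen, fell by 1.11 on the log2 scale (limma adjusted p = 0.012). They read 5′ to 3′ on the gene's strand in GRCm39, at chr19:10872345-10872572 (plus), chr15:81931812-81932049 (minus), chr6:56681739-56681934 (minus) and chr7:45045170-45045416 (minus), where the RefSeq windows were found by exact match. The Snu13 stretch also lies in an intron of a longer annotated transcript of the gene, which runs to position 81933618, and the other 3 stretches adjoin the annotated gene start. Capitals mark CCGGAAG or its reverse complement CTTCCGG in the first 3 and GCATGCGC or its reverse complement in the last.
Prpf19: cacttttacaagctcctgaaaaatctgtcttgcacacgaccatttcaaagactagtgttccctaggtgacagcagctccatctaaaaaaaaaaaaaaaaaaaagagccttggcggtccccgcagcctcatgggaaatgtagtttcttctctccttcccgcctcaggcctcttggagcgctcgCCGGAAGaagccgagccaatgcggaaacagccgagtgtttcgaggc
Snu13: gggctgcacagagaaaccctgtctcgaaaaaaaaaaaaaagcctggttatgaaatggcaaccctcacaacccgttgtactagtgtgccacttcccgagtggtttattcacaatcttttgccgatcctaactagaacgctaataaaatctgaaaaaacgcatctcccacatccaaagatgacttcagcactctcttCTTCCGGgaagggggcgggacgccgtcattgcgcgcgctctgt
Lsm5: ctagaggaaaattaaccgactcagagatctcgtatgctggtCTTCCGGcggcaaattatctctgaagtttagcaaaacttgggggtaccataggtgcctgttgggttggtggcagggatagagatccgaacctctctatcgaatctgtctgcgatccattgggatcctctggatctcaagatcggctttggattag
Snrnp70: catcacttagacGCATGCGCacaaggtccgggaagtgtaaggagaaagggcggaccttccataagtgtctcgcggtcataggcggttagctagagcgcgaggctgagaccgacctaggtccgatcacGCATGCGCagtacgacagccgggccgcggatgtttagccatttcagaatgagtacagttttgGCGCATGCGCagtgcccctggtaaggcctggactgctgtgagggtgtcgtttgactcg
Prpf19, which rose, and Snu13 and Lsm5, which fell on the deposited scale, all hold the ETS core. It lies on the gene's strand in Prpf19 and on the opposite strand in Snu13 and Lsm5. Because the stretches were picked to show this motif, their holding it says nothing about genes that rose or fell.

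Lists of splicing genes outside the term were read against the shares of all genes tested, 42.6% lower and 17.8% higher on the deposited scale and 26.3% each way after scaling. SMN complex and snRNP assembly genes load Sm rings onto RNA, and of 15 tested 8 fell and 0 rose (median -0.56), and after scaling 1 fell and 2 rose (median -0.04). Of 15 tested genes for listed spliceosome proteins that lack the term, 8 fell and 0 rose (median -0.50), and after scaling 3 fell and 0 rose (median 0.01). Of 11 minor spliceosome genes 3 fell and 1 rose, Zcrb1 (log2 change 0.80, limma adjusted p = 0.00943), and after scaling 3 fell and 4 rose. Among 9 SR protein kinase and transport genes, 4 fell and 2 rose on the deposited scale (median -0.20), and 1 fell and 2 rose after scaling (median 0.28). The kinase gene Srpk3, known for its expression in muscle, was at 17.1, 14.2 and 17.0 FPKM in HDCKO and at 0.201, 0.306 and 0.279 FPKM in WT, so it reached the filter on low values through the HDCKO libraries. Srpk3 is 1 of the 2 rises of this list, which are therefore not read against the share of all genes. Clk2 fell by 0.91 and Clk1 by 0.67 on the log2 scale (limma adjusted p = 0.013 and 0.0261), and Clk1 did not pass after scaling (-0.15, adjusted p = 0.52). Without HDCKO mouse 2 the adjusted p of Clk2 on the deposited scale was 0.0538, and without any 1 library other than HDCKO mouse 3 that of Clk1 was 0.0518 to 0.0773. After scaling the log2 change of Clk2 was -0.49 (limma adjusted p = 0.0264). That call was lost without any 1 library other than HDCKO mouse 3 (adjusted p 0.0502 to 0.0976).

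Of 18 tested alternative splicing regulators, 5 rose and 4 fell on the deposited scale (median -0.23), and 5 rose and 2 fell after scaling (median 0.28). Rbfox1 and Rbm20 are among the 5 and reached the filter only through the libraries where they were high. The rises of this list are therefore not read against the share of all genes. Rbfox1, which binds GCAUG in introns, was at 26.4, 16.5 and 15.5 FPKM in HDCKO and at 0.392, 0.141 and 0.120 FPKM in WT, and it reached the filter through the HDCKO libraries. Rbm24, a muscle splicing regulator, was at 64.6, 39.8 and 43.0 FPKM in HDCKO and at 2.74, 0.727 and 1.76 FPKM in WT (log2 change 4.55, limma adjusted p = 0.000593). Rbm20, known for titin splicing, likewise reached the filter through the HDCKO libraries, with a mean of 0.103 FPKM in WT. Ptbp1, named after its values were seen and known to repress muscle and neural exons, fell by 2.19 on the log2 scale (adjusted p = 0.015). Rbm38 and Mbnl1 rose as well (log2 change 2.89 and 0.74, limma adjusted p = 0.0015 and 0.00501). Ptbp3, Khdrbs1 and Tial1 also fell (log2 change -2.31, -0.96 and -0.58, adjusted p = 0.0161, 0.0448 and 0.0101). Khdrbs1 and Tial1 did not pass after scaling. Among the regulators that did not pass on the deposited scale were Rbfox2 (log2 change -0.19), Mbnl2 (-0.21) and Celf1 (-0.27). The 28 fibre genes were high in the same HDCKO libraries as Rbfox1, Rbm24 and Rbm20, and their part in these levels was not tested.

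**Figure D5:**
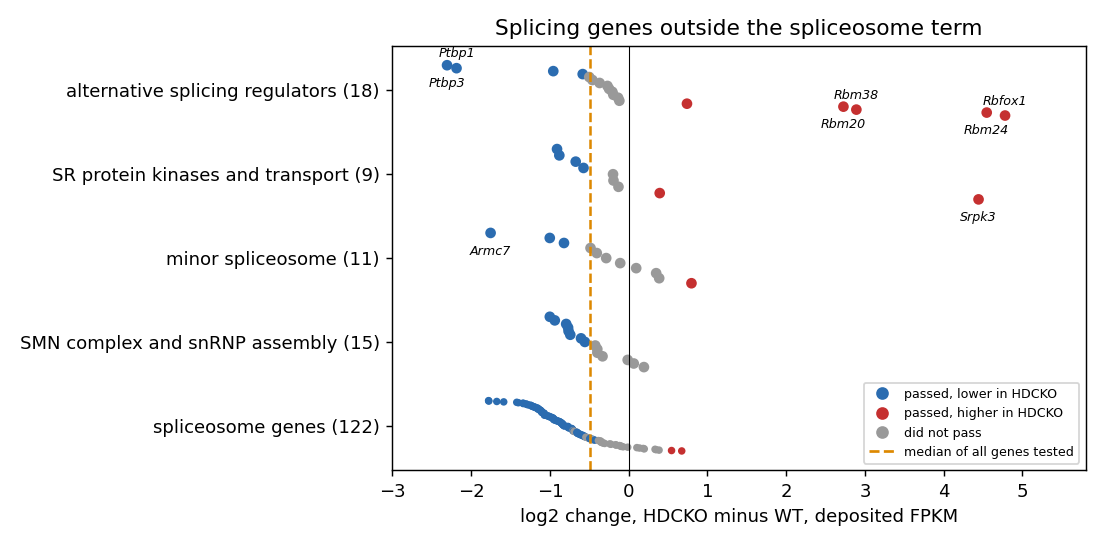
Log2 change (HDCKO minus WT, deposited FPKM) of tested splicing genes outside the spliceosome term, by list with the number tested in brackets, and of the 122 spliceosome genes for comparison. Colours show the limma call and direction, the dashed line is the median of all genes tested, and labels name genes past 1.5 on the log2 scale in the 4 lists. Rbfox1, Rbm24 and Srpk3 lie beyond 4, while the spliceosome genes lie between -1.78 and 0.67. Rbfox1 and Srpk3 reached the filter through the HDCKO libraries.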

How the data were processed

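Per the labels' protocols, hind limb muscle was extracted with TRIzol and the VAHTS Universal V6 kit gave the libraries. The submitters' processing notes name FastQC 0.11.9, HISAT2 2.1.0 with HTSeq 0.11.2, and STAR 2.7.11b on GRCm39, and the series' design text states that a count matrix was converted into the deposited FPKM values. The sources used here do not say which aligner they rest on or whether counting was stranded.

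Because the values are FPKM, HDCKO was compared with WT by limma-trend (limma 3.58.1, R 4.3.3) on log2(FPKM + 0.5), with no covariate, in the 13288 genes whose mean reached 0.5 FPKM. Log2 changes are on that scale, which damps low genes. P-values were adjusted over all genes tested (threshold 0.05), on deposited values and after median-of-ratios scaling (factors from the 16308 genes above 0 in all 6 libraries). On simulated data the script recovered 19 of 99 genes changed by 1 on the log2 scale and 61 of 99 changed by 2. Far fewer genes changed there than in these data, so these shares do not carry over directly. A member that did not pass is not thereby shown to be unchanged. Named members were the 8 largest rises and falls that passed without overlap, the 4 largest each way after scaling, the most abundant member and the one with the smallest p of each class, and 6 pairs of copies. Snrpn, the copy of Snrpb in those pairs, carries no term and did not reach the filter. Some computed results, 1 pair of copies among them, are not reported here. Up to 3 genes were named per related list by smallest p, and others were named after their values were seen. Members and lists were chosen with earlier results of these data known. Other settings tried were the pseudocount, the filter, quantile normalization, fibre and mitochondrial genes taken out of the total, other scaling factors, a replicate block and each library left out. The rough depth estimate, 29342695 to 37800714 fragments per library, entered no test.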

Additional observations from a re-analysis of the deposited data

How the results depend on the processing

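On deposited FPKM, the 89 spliceosome genes that fell became 55 with quantile normalization, 33 with fibre and mitochondrial genes taken out of the total and 47 with median-of-ratios scaling. These are 45.1%, 27.0% and 38.5% of the members, where 30.3%, 22.3% and 26.3% of all genes fell. The 2 that rose became 9, 13 and 12, and the median of -0.82 became -0.38, -0.34 and -0.31. The cause was not tested. With 1 library left out, 19 to 102 fell and 1 to 4 rose, with a median from -0.98 to -0.66. After median-of-ratios scaling, 9 to 56 fell and 2 to 18 rose with 1 library left out, with a median from -0.31 to -0.24. Over the single genes named, 351 values under other settings kept the call on the deposited scale, 70 lost it and 9 gained it. A further 4 changed sign with a pass in either fit. These 4 were Zmat2 (0.0002 with fibre and mitochondrial genes out, 0.0353 with median-of-ratios scaling), Cwc15 (0.39 with fibre and mitochondrial genes out) and Snrpb (0.38 likewise). Where neither fit passed, a change of sign was counted as kept. Cwc15 and Snrpb with median-of-ratios scaling are such cases. After scaling, counted in the same way, 346 were kept, 53 lost the call and 4 gained it.

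Mice of the 2 groups share replicate numbers. Deviations from the group means correlated at 0.122, 0.0666 and 0.138 for equal numbers 1, 2 and 3. For unequal numbers the correlations ran from -0.182 to 0.112. These values do not settle whether the numbers pair the mice. With the replicate number as a block, 75 genes fell and 2 rose on the deposited scale, and 27 fell and 9 rose after scaling, where 47 and 12 did without it. With the block, 61.5% of members and 38.3% of all genes fell on the deposited scale, and 22.1% and 22.7% after scaling, so the members' excess was gone there. Members had a median of 21.7 FPKM, and 3 mice per group limit the precision.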
